A study of Mus musculus with 8 samples.

Results

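Potassium channel genes were examined in tubuloids, epithelial structures grown in Matrigel from fragments of postnatal mouse kidney, as genes whose symbol consists of Kcn, a family letter code and a number. Of 24063 gene symbols in the deposited RNA-Seq tables, 92 met this rule, and they were listed as 181 of 33068 transcripts. Symbols of antisense and host transcripts such as *Kcnq1ot1* and *Kcnd3os* did not meet it. The 8 cultures all carried the genotype Pkd2fl/fl Pax8rtTA TetOCre mTmG, that is, floxed alleles of the polycystic kidney disease gene *Pkd2*, a doxycycline-inducible Cre driven by *Pax8* and a reporter that switches colour after recombination, so that the controls carried these alleles too. No doxycycline was named for these cultures. The kidneys were labelled as taken from postnatal day 7 to 10, and the study's methods give an earlier range of ages. After plating, 4 cultures (GDNF cultures 6, 12, 17 and 22) received glial-derived neurotrophic factor (GDNF), the ligand that drives outgrowth of the ureteric bud, for 24 h. The 4 control cultures (3, 7, 14 and 21) received the same medium with hepatocyte, epidermal and basic fibroblast growth factors but no GDNF, and all 8 were collected on culture day 7. Whether cultures of one group came from separate animals was not stated, so p-values measure the spread between cultures.

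Potassium channels let potassium ions cross cell membranes and thereby set the membrane voltage. In the kidney, basolateral channels of the proximal tubule return potassium that the sodium pump brings into the cell, apical channels of the thick ascending limb recycle potassium for the sodium-potassium-chloride cotransporter, and apical channels of the distal nephron and collecting duct secrete potassium into the urine. Pore-forming subunits fall into inward rectifiers (Kcnj), which pass current into the cell more easily than out of it, tandem pore-domain leak channels (Kcnk), voltage-gated channels (Kcna to Kcnd, Kcnf to Kcnh, Kcnq, Kcns, Kcnv) and channels gated by intracellular calcium or sodium (Kcnn, Kcnma, Kcnt, Kcnu). Auxiliary subunits (Kcnab, Kcne, Kcnip, Kcnmb) change the gating or the trafficking of these pores.

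Total counts were 72991721 to 97490625 per culture, and the members held 0.0347% to 0.0715% of them, or 31721 to 61963 counts. Reads shared by transcripts were counted under each of them, so these are not numbers of reads. *Kcnma1*, listed as 22 transcripts, gave 89263 of the member counts over all 8 cultures. The labelled tissue was checked with marker genes of its cell types. The 6 epithelial markers summed to 348.2 to 3145 TPM (the authors' transcript abundance, corrected for transcript length and scaled to one sum per culture) in control cultures and to 868.8 to 1245 TPM in GDNF cultures, with the lowest sum in control culture 14. The 8 pericyte and smooth muscle markers reached 202.4 to 959.6 TPM and 241.0 to 790.9 TPM in the respective groups, and the 6 fibroblast markers 81.2 to 792.8 TPM and 87.9 to 586.4 TPM, both highest in control culture 14. Control culture 14 thus stood apart. In bulk RNA, fewer cells of a type and less RNA per cell cannot be told apart. Cultures also differed in kind, as *Xist* RNA was high in controls 3 and 7 and in GDNF cultures 6 and 12, and Y-linked RNA in the other 4. Control culture 3 and GDNF culture 6 held both.

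Most potassium channel genes were low in these cultures. A mean of 1 TPM or more over the 8 cultures was found for 22 members, 39 lay from 0.1 to under 1 TPM, 23 were under 0.1 TPM, and 8 had no count in any culture, which allows up to 3 counts per culture. Levels between genes are given as TPM of each gene's transcript with the highest mean count, called its most abundant transcript here. Another transcript of the gene can have a higher TPM, as for *Kcnn4*. Auxiliary subunits were the class most often at 1 TPM or more (8 of 15), followed by tandem pore-domain channels (4 of 14), calcium- or sodium-activated pores (2 of 8), voltage-gated pores (6 of 40) and inward rectifiers (2 of 15). When TPM was summed over the transcripts of a gene, 30 members reached 1 TPM.

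**Figure D1:**
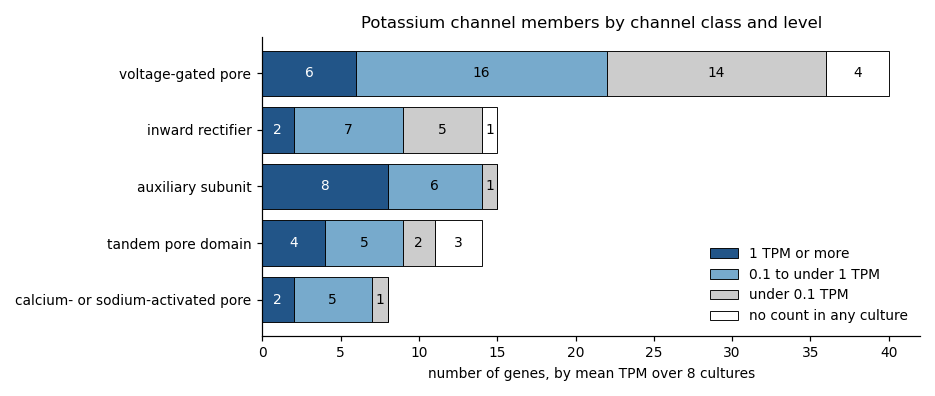
Number of potassium channel genes (horizontal axis) for each channel class (vertical axis), split by mean TPM over the 8 cultures. Auxiliary subunits have 8 of 15 genes at 1 TPM or more, voltage-gated pores 6 of 40, with 4 voltage-gated genes lacking any count.

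The promoters of members were compared as sequence, since the genes ranged from silent to abundant. RefSeq promoters of GRCm38.p6, from 250 bases before to 50 after the start, were matched for 67 of the 92 members. Their median GC content was 62.0% and their median number of CpG dinucleotides 12, against 52.7% and 7 over all 32851 promoters. Each member had 1 promoter, at the listed start nearest its most abundant transcript, whereas the full set held every listed start. That start could lie far away, as for *Kcnip4* (239248 bases) and *Kcnh2* (22013 bases), both at 1 TPM or more. Searched on both strands, TATAAA was found in 4.48% of the member promoters and in 13.6% of all, GGGCGG in 56.7% and 35.7%, and AGATAA in 2.99% and 11.2%. Of the 19 members at 1 TPM or more with a promoter, 57.9% held GGGCGG, and of the 48 under 1 TPM, 56.2%. Each motif was counted on its own, and TATAAA and AGATAA can share an end base. The promoters shown are those of *Kcnj8* (chr6:142571565-142571864, minus strand) and *Kcnc2* (chr10:112270871-112271170, plus strand), the members with the largest differences between GDNF and control cultures among those at 5 TPM or more, of *Kcnj13* (chr1:87394680-87394979, minus strand), whose groups did not overlap, and of *Kcnk5* (chr14:20181733-20182032, minus strand), an abundant tubule channel. Each is written 5′ to 3′ along its gene, and capitals mark matches to the 3 motifs.
Kcnj8: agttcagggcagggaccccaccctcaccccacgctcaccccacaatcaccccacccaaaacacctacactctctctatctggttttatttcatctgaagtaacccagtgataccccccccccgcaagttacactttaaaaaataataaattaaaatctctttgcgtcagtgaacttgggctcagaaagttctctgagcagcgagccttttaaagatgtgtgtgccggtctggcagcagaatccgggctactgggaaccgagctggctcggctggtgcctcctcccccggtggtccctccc
Kcnc2: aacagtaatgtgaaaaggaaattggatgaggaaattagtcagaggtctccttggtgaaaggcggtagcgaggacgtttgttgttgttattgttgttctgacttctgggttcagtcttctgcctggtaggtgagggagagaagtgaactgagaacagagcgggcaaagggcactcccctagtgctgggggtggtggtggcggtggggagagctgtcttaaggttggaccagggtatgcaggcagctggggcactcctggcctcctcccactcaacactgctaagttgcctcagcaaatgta
Kcnj13: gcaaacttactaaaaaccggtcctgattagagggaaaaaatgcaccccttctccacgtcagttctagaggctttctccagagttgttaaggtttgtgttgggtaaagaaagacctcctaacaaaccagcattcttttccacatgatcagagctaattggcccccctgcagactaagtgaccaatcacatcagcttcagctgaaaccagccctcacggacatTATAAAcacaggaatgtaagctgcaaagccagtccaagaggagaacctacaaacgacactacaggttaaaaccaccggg
Kcnk5: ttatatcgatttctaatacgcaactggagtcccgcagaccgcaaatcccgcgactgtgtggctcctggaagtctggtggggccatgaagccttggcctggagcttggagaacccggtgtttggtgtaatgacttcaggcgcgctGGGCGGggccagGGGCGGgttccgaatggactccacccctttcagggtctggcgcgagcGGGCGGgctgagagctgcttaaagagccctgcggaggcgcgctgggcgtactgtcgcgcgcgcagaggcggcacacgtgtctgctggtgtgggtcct
The *Kcnk5* promoter was rich in GC (63.7%, 26 CpG dinucleotides, with a listed start 27 bases from that of the abundant transcript) and held GGGCGG at each stretch of capitals. The *Kcnj13* promoter had 46.0% GC and 5 CpG dinucleotides, with TATAAA before the start. The *Kcnj8* promoter (53.3% GC) and the *Kcnc2* promoter (52.7% GC) held none of the 3 motifs. These matches describe letters only, and no binding was measured.

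A tandem pore-domain channel led the order by most abundant transcript. *Kcnk1* (chromosome 8, 125993655 to 126030685 in GRCm38) encodes a weakly inward rectifying leak channel known from distal tubule and collecting duct. It had the highest mean level of the members on this scale, at 27.7 TPM. Its level was 32.6, 24.2, 5.01 and 43.1 TPM in the controls (cultures 3, 7, 14 and 21, in this order throughout) and 51.8, 29.5, 13.5 and 21.7 TPM after GDNF (cultures 6, 12, 17 and 22). The groups overlapped, and the lowest value lay in the control culture with the least epithelial RNA. *Kcnk5* (chromosome 14, 20140057 to 20181782), an alkaline-activated channel of the basolateral membrane of the proximal tubule that takes part in bicarbonate reabsorption, came after *Kcnn4* in the order. It was at 11.3, 9.45, 6.59 and 19.1 TPM in the control cultures and at 18.6, 16.6, 13.5 and 22.6 TPM in the GDNF cultures, again lowest in control culture 14. *Kcnk12*, a relative of the halothane-inhibited leak channels, followed *Kcnj8* with 4.17 to 11.4 TPM in control and 8.42 to 19.2 TPM in GDNF cultures. Of the other 11 genes of this class, *Kcnk2* was the only one with a mean of at least 1 TPM.

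*Kcnn4* (chromosome 7, 24369826 to 24385212), the calcium-activated channel of intermediate conductance that epithelia, lymphocytes and red blood cells use, had a mean of 19.5 TPM. Its levels of 14.5, 17.5, 9.67 and 22.4 TPM in the controls and 30.1, 25.9, 14.1 and 21.4 TPM after GDNF varied less between cultures than those of *Kcnk1*. *Kcnj8* (chromosome 6, 142564837 to 142571614), the pore of ATP-sensitive potassium channels in vascular smooth muscle and pericytes, had the highest mean of the inward rectifiers by most abundant transcript, at 11.8 TPM, while *Kcnj16* was higher when transcripts were summed (14.7 TPM). *Abcc9*, the sulfonylurea receptor with which this pore forms channels in vessels, was at 0.497 to 1.25 TPM, and *Abcc8*, the receptor of pancreatic beta cells, at 0.0717 to 0.643 TPM. Auxiliary subunits of *Kcnq1* followed with *Kcne4*, at 6.28 to 16 TPM, and *Kcne3*, which keeps *Kcnq1* channels open in intestinal and airway epithelium, at 4.29 to 15.6 TPM. *Kcnq1* itself was at 1.04 to 4.58 TPM, and *Kcne1*, its partner in the proximal tubule and heart, did not exceed 0.282 TPM.

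The voltage-gated channel with the highest level was *Kcnc2* (chromosome 10, 112269898 to 112466304), known from fast-spiking neurons, at 1.74 to 13 TPM, followed by *Kcna3*, known from lymphocytes, at 1.12 to 7.03 TPM. Of the 8 neural and glial markers, 3 had a mean of at least 1 TPM. *Elavl3*, *Elavl4*, *Sox10* and *Syt1* stayed under 0.5 TPM, with 0 counts of *Sox10* in all 8 cultures. The sum of the 8 markers was 3.40 to 6.68 TPM in control and 3.21 to 5.89 TPM in GDNF cultures. *Cd3e*, which defines T cells, had no count in any culture, while *Ptprc*, a marker of all leukocytes, was at 0.285 to 1.79 TPM. Of the 5 leukocyte markers measured, 1 had a mean of at least 1 TPM. Their sum was 2.86 to 5.39 TPM in control and 4.20 to 8.42 TPM in GDNF cultures. *Kcnk13*, also listed as a leukocyte channel, was at 0 to 0.662 TPM, with a log2 fold change of -2.17 ± 1.64. The calcium- and voltage-activated BK channel was represented by its pore *Kcnma1* at 0.338 to 3.91 TPM and by the beta subunits *Kcnmb1* at 0.987 to 4.20 TPM, *Kcnmb4* at 1.57 to 3.75 TPM and *Kcnmb2* at 0.559 to 5.95 TPM. Of the *Kcnmb4* exon bases, 76.7% are shared with genes on the opposite strand. The library kit does not mark strand, so the *Kcnmb4* level may include reads of those genes. *Kcnma1* was listed as 22 transcripts that share reads. Its TPM summed over them had a mean of 42.8, against 1.84 for the most abundant one, so its place in the order depended on the transcripts counted. The same held for *Kcnn4* (39.7 TPM summed), *Kcne3* (42.9 TPM), *Kcnj16* (14.7 TPM) and *Kcnj15* (2.94 TPM). On the summed scale *Kcnk1*, listed as 1 transcript (27.7 TPM), was below *Kcne3*, *Kcnma1* and *Kcnn4*.

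The order was loose between neighbours. *Kcnk1* was above *Kcnn4* in 6 of 8 cultures and *Kcnn4* above *Kcnk5* in 7 of 8. *Kcnj8* was above *Kcnk12* in only 4 of 8, with a mean log2 ratio of 0.06 ± 1.24 (SD, n = 8), and *Kcnk12* above *Kcne4* likewise in 4 of 8. *Kcne4* exceeded *Kcne3* in 7 of 8 cultures. Among the 11 pairs of neighbours, the mean log2 ratio exceeded its SD between cultures for *Kcnn4* over *Kcnk5* (0.42 ± 0.33) and *Kcne4* over *Kcne3* (0.60 ± 0.56), and no other pair of neighbours differed beyond that spread.

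**Figure D2:**
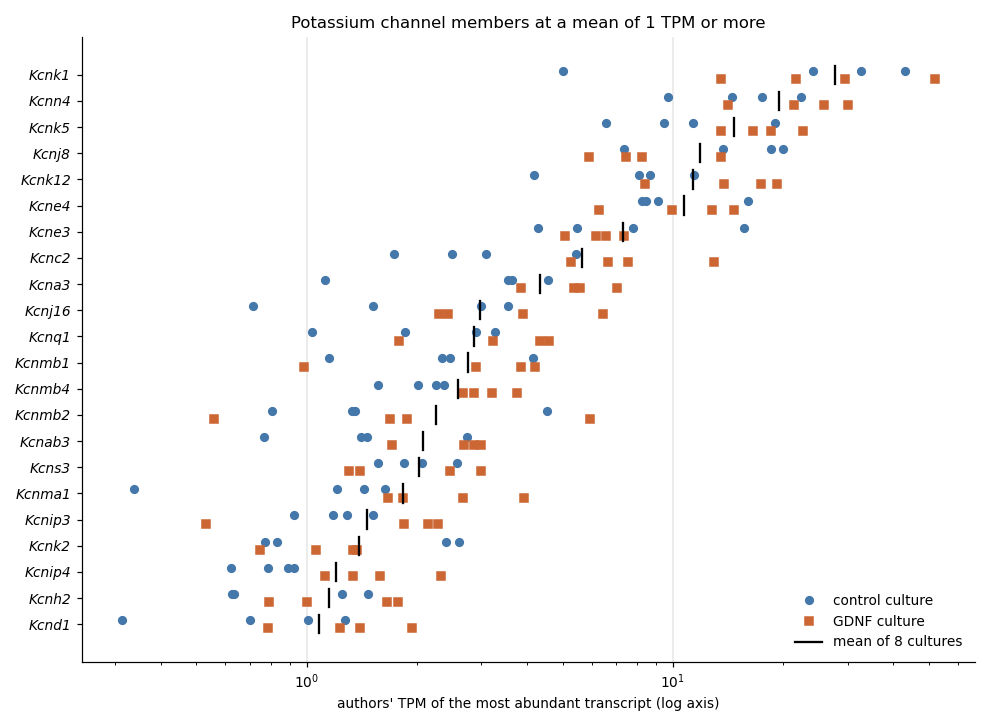
Authors' TPM of the most abundant transcript (horizontal log axis) for the 22 potassium channel genes whose mean reached 1 TPM, with a circle for each control culture, a square for each GDNF culture and a bar for the mean of 8. Control and GDNF cultures overlap for most genes, and *Kcnk1* spans 5.01 to 51.8 TPM.

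The channels were then related to nephron segments. Of the channels listed for the thick ascending limb and distal convoluted tubule, *Kcnj1*, *Kcnj10* and *Kcna1* had means under 1 TPM by most abundant transcript. Summed over transcripts, *Kcnj1* had a mean of 1.20 TPM. *Kcnj16* and *Kcnma1*, also listed there, had 2.98 and 1.84 TPM by most abundant transcript and 14.7 and 42.8 TPM summed. Channels listed for the connecting tubule and collecting duct are given further below. *Kcnj1*, which encodes the ROMK channel of the thick ascending limb and collecting duct, was at 1.41, 0.758, 0.179 and 0.0737 TPM in the control cultures and at 1.08, 0.617, 0.601 and 0.162 TPM in the GDNF cultures. Its highest values lay in control culture 3 and GDNF culture 6. Of the 5 thick ascending limb markers, the claudin *Cldn10* was highest in the same cultures (27.3 and 19.3 TPM), *Umod*, which encodes uromodulin, was highest in control culture 7 and GDNF culture 6 (2.02 and 2.80 TPM), and *Slc12a1*, *Cldn16* and *Ptger3* had their highest values in other cultures. *Slc12a1*, the cotransporter that defines that limb, did not exceed 0.340 TPM, and *Ptger3* was at 1.04 to 1.99 TPM. *Kcnj10*, the basolateral channel of the distal convoluted tubule, was at 0.0114 to 0.265 TPM, and *Kcna1*, an apical channel of the same segment, at 0.0540 to 0.306 TPM. *Pvalb*, which marks the early distal convoluted tubule, had no count in any culture, and *Slc12a3*, the cotransporter of that tubule, was at 0.0572 to 1.21 TPM. *Trpm6*, the magnesium channel of that tubule, was at 0.456 to 3.69 TPM.

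*Kcnj16*, which joins *Kcnj10* or *Kcnj15* in basolateral channels of the distal and proximal tubule, was above both when the most abundant transcripts were compared. It was at 3.55, 2.99, 0.713 and 1.52 TPM in the control cultures and at 6.43, 3.91, 2.30 and 2.43 TPM in the GDNF cultures, highest in GDNF culture 6 and lowest in control culture 14. GDNF culture 6 also had the highest *Fxyd4* (69.3 TPM), *Scnn1b* (9.23 TPM) and *Calb1* (43.2 TPM), genes of the distal nephron and collecting duct. These were picked from lists of 8 and 4 markers, and where the other listed markers peaked is not given here. *Kcnj15* was at 0.0813 to 0.515 TPM. On this scale *Kcnj16* exceeded *Kcnj10* and *Kcnj15* in every culture, but *Kcnj15* was listed as 12 transcripts, and its TPM summed over them had a mean of 2.94, against 14.7 for *Kcnj16*.

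Of the 8 channels listed for the proximal tubule, 4 had a mean of at least 1 TPM (*Kcnk5*, *Kcnj8*, *Kcnj16* and *Kcnq1*). *Kcna10*, a cyclic nucleotide-gated apical channel, had no count. *Kcnj13*, a weak rectifier of transporting epithelia, was at 0.263 to 1.77 TPM. Of the 8 proximal tubule markers, *Lrp2*, *Cubn*, *Slc34a1*, *Slc22a6*, *Slc13a3* and *Aqp1* stayed under 0.5 TPM in all 8 cultures, and *Slc5a2* alone had a mean above 1 TPM, with 3.75 to 12.2 TPM. Of the 9 channels listed for connecting tubule and collecting duct, 6 had a mean of at least 1 TPM. Their summed level was 23.5 to 72.3 TPM in control and 41.0 to 97.3 TPM in GDNF cultures, most of it *Kcnk1* and *Kcnn4*. Of the 8 principal cell and collecting duct markers, 6 had a mean of at least 1 TPM. The 8 summed to 14.2 to 48.6 TPM in control and 23.2 to 118.6 TPM in GDNF cultures. *Aqp2*, the water channel that defines principal cells, was the only one under 0.5 TPM in all 8 cultures, at no more than 0.356 TPM. Of the 7 intercalated cell markers, *Foxi1*, *Atp6v1g3*, *Slc4a1*, *Slc26a4* and *Hmx2* stayed under 0.5 TPM and *Rhbg* did not exceed 0.506 TPM, while *Atp6v0d2*, a proton pump subunit, was at 3.08 to 9.75 TPM, with a log2 fold change of -0.80 ± 0.32. General kidney epithelial genes such as *Pax8* (30.5 to 109.7 TPM) and *Cdh16* (11.7 to 120.0 TPM) were present in every culture.

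Of the 4 channels listed for smooth muscle and pericytes, *Kcnmb1* and *Kcnj8* had a mean of at least 1 TPM. *Kcnmb1*, the BK subunit of smooth muscle, was lowest in control culture 3 (1.15 TPM) and GDNF culture 6 (0.987 TPM), where *Myh11*, the smooth muscle myosin, was also lowest in its group (0.180 and 0.106 TPM). *Kcnj8*, at 18.6, 13.7, 20 and 7.35 TPM in the controls, ranked these 4 cultures as the pericyte gene *Rgs5* did (44.1, 35.4, 86.8 and 27.7 TPM) but not as *Myh11* did (0.180, 1.14, 6.94 and 2.66 TPM). After GDNF, *Kcnj8* was at 13.6, 5.88, 8.24 and 7.42 TPM, with *Rgs5* at 35.1, 29.6, 90.8 and 56.1 TPM, and the highest culture differed between these genes. The part of these cells in the channel levels was not tested. *Kcna5* and *Kcnj12* stayed under 0.5 TPM. Of the 3 channels listed for endothelium, *Kcnn4* alone had a mean of at least 1 TPM. *Kcnj2* was at 0.274 to 1.74 TPM, and *Kcnn3* did not exceed 0.320 TPM. Of the 6 endothelial markers, 2 had a mean of at least 1 TPM, and *Cdh5* stayed under 0.5 TPM.

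**Figure D3:**
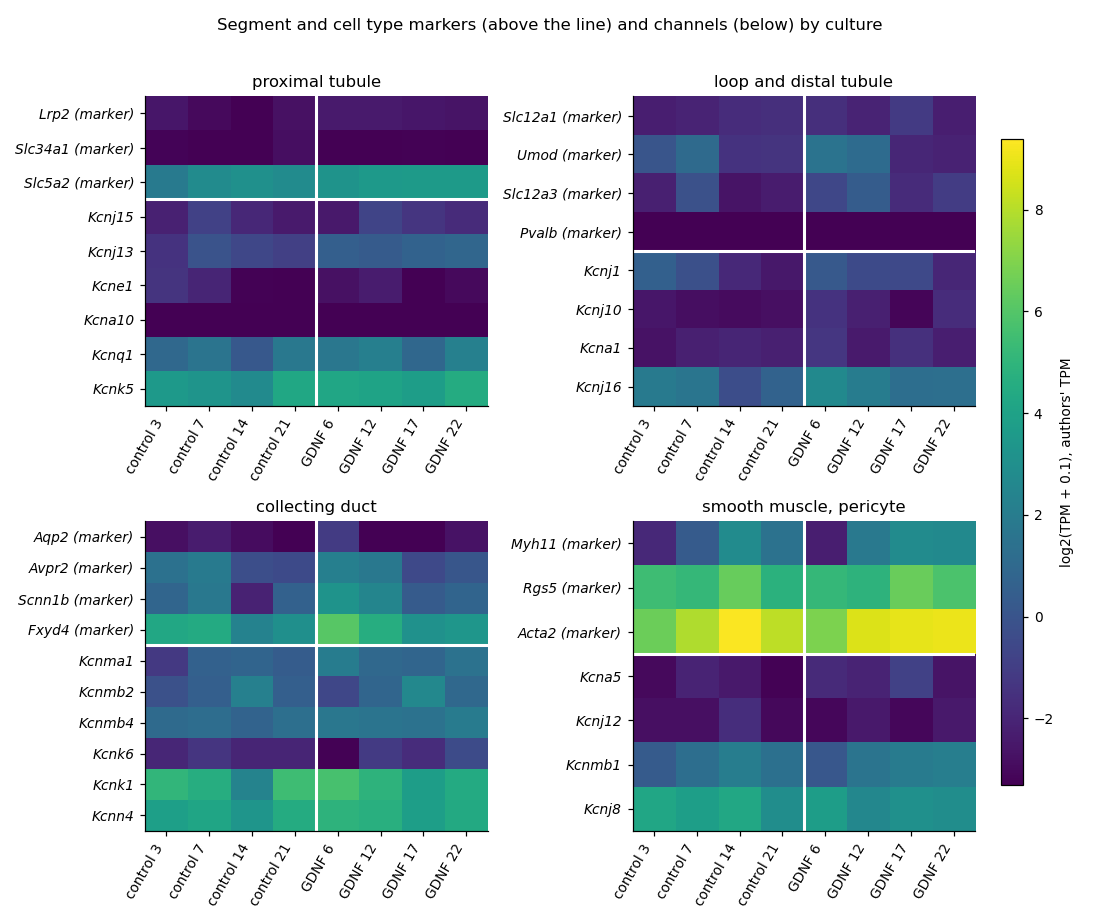
Colour shows log2(TPM + 0.1) of segment and cell type markers (above the white line in each panel) and of channels listed for that segment or cell type (below it), in rows, for the 8 cultures in columns. *Kcnk1* and *Kcnn4* are high beside a near-zero *Aqp2*, and *Kcnj16* is above *Kcnj10* in every culture. Of the 8 listed principal cell and collecting duct markers, not all shown, 6 had a mean of at least 1 TPM.

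GDNF and control cultures were next compared gene by gene. Counts summed per gene were tested with edgeR's quasi-likelihood test over all 16557 genes that passed its filter on low counts, which kept 66 of the 92 members. The 26 members left out had a mean of at most 0.0781 TPM. None of the 66 passed an adjusted p of 0.05 (Benjamini-Hochberg, smallest adjusted p = 0.167), as was true of all genes tested (0%). At an unadjusted p of 0.05, 4 members were higher after GDNF (6.06%), against 9.25% of all genes, and 3 were lower (4.55%), against 12.9% of all genes, so neither share stood above the background. In CPM (counts scaled to library size and, by TMM, to composition), 1 member was higher in every GDNF culture than in any control (1.52%, against 6.99% of all genes) and 1 was lower (1.52%, against 6.26%). DESeq2, which assigned an adjusted p to 18 members, called 1 of them (5.56%) at 0.05, against 10.6% of 11413 genes. The members had low counts, with a median of 1.29 CPM against 17.6 for all genes, and a median standard error of the log2 fold change of 0.55 against 0.24.

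The member called by DESeq2 was *Kcnj8*. It was at 34.9, 18.7, 27.3 and 9.31 CPM in the controls and at 15.9, 6.44, 9.03 and 7.68 CPM after GDNF. The GDNF values were the lower ones apart from an overlap with control culture 21. The log2 fold change was -1.21 ± 0.41 (SE, n = 4), with an edgeR adjusted p = 0.167 and a DESeq2 adjusted p = 0.0346. The exact permutation test of log2 CPM over the 70 assignments gave p = 0.0571 (two-sided, n = 4), where 0.0286 is the smallest value possible. The difference was -1.33 among the cultures with *Xist* RNA and -0.94 among those with Y-linked RNA. The DESeq2 call was lost without control culture 14 (adjusted p = 0.0658) and without GDNF culture 17 (adjusted p = 0.0896), and DESeq2 gave no adjusted p without control culture 3, GDNF culture 12 or GDNF culture 22. The unadjusted edgeR p also missed 0.05 without control culture 3. *Abcc9* showed a log2 fold change of -0.09 ± 0.33 in edgeR.

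The remaining members lower at the unadjusted threshold were *Kcnk2* and *Kcne3*. *Kcnk2*, a leak channel opened by stretch and lipids, was at 7.94, 5.69, 16 and 15.7 CPM in the controls and at 5.33, 3.61, 6.97 and 6.53 CPM after GDNF. The high values were those of control cultures 14 and 21, and the other 2 controls lay within or near the GDNF range. Its log2 fold change was -1.01 ± 0.36 with an edgeR adjusted p = 0.172. *Kcne3* was at 30.3, 31.5, 62.5 and 16.1 CPM in the controls and between 17.3 and 23.3 CPM after GDNF. Control culture 14 gave the high end, and without it the log2 fold change of -0.80 ± 0.34 became -0.37.

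Of the members higher at the unadjusted threshold, *Kcnc2* had the highest mean TPM. It was at 9.22, 21, 9.64 and 11.1 CPM in the controls and at 43.0, 23.4, 16.3 and 19.4 CPM after GDNF. Control culture 7 lay within the GDNF range and the other 3 controls below it. Its log2 fold change of 1.0 ± 0.36 (edgeR adjusted p = 0.173) became 0.63 without GDNF culture 6. *Kcnma1* was at 38.6, 107.3, 113.5 and 88.8 CPM in the controls and at 260.1, 119.9, 99.9 and 151.7 CPM after GDNF, with a log2 fold change of 0.86 ± 0.37, which became 0.51 without GDNF culture 6. The difference was 1.46 among cultures with *Xist* RNA and 0.29 among those with Y-linked RNA. Reads shared by the 22 transcripts of *Kcnma1* were counted more than once in these CPM. *Kcnip4*, a calcium-binding subunit of the voltage-gated Kcnd pores, was at 5.12 to 6.03 CPM in the controls and at 5.90 to 11.6 CPM after GDNF, with a log2 fold change of 0.59 ± 0.24, which became 0.39 without GDNF culture 22. Of its exon bases, 7.10% lie across from the gene *5730480H06Rik*, whose log2 fold change was 0.80 ± 0.28.

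*Kcnj13* (chromosome 1, 87384577 to 87394729) was the member higher in every GDNF culture. It was at 0.305, 0.710, 0.459 and 0.333 CPM in the controls and at 0.971, 0.778, 1.02 and 1.13 CPM after GDNF, on 519 counts in all. The log2 fold change was 1.10 ± 0.41 and the exact permutation p = 0.0286, the smallest possible (edgeR adjusted p = 0.18). *Kcnj13* lies on the opposite strand of *Gigyf2*, a translational repressor, and 49.1% of its exon bases are shared with exons of that gene. The library kit does not mark strand, so reads of both genes cannot be told apart there, and *Gigyf2* itself had a log2 fold change of 0.37 ± 0.14. *Kcng2*, a silent subunit that modifies other voltage-gated pores, was lower in every GDNF culture, with 0.554 to 1.14 CPM in control and 0.0372 to 0.431 CPM in GDNF cultures on 376 counts in all (log2 fold change -1.27 ± 0.65, exact permutation p = 0.0286). In all, 23 of the 92 members share exon bases with a gene on the opposite strand. The largest share was that of *Kcnmb4*, with 76.7%. Each of the 7 members past the unadjusted threshold missed it when at least 1 culture was left out, *Kcnk2* without control culture 14 or GDNF culture 12 and *Kcnj13* without control culture 21 or GDNF culture 22.

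**Figure D4:**
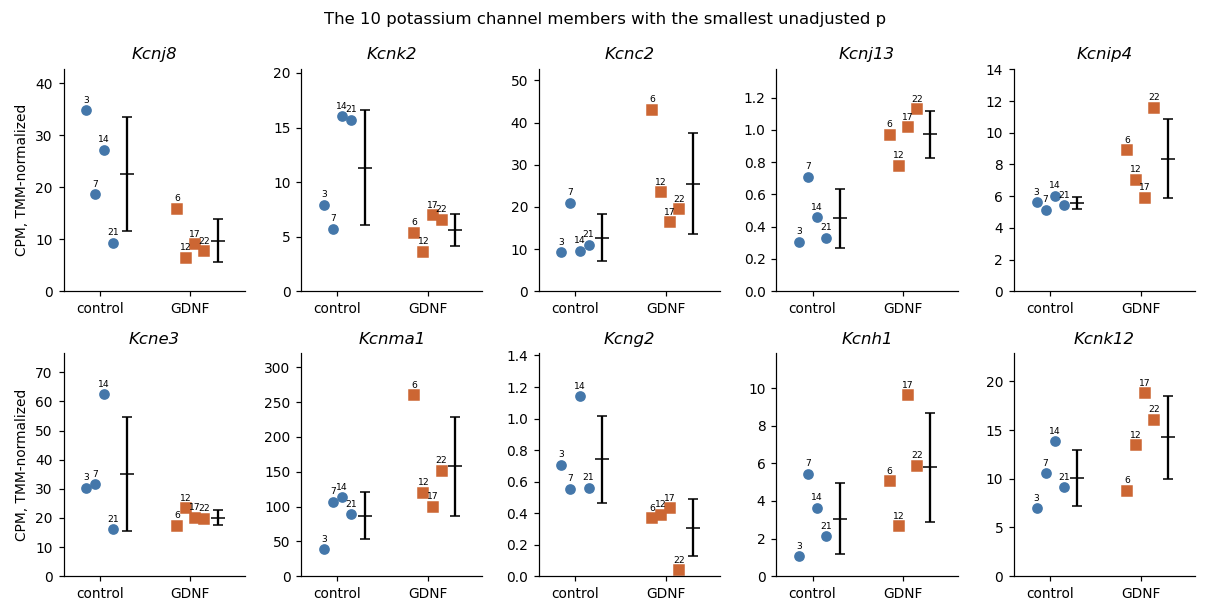
TMM-normalized CPM (vertical axes, from 0) of the 10 potassium channel genes with the smallest unadjusted edgeR p, with a numbered point for each culture and the mean ± SD (n = 4) beside each group. Groups are apart for *Kcnj13* and *Kcng2*, and overlap for the other 8, with *Kcnj8* at 22.5 ± 11 CPM in control and 9.76 ± 4.22 CPM in GDNF cultures.

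*Kcnh1*, an ether-a-go-go channel, and *Kcnk12* complete the 10 members with the smallest p, at log2 fold changes of 0.92 ± 0.51 and 0.49 ± 0.28. Values of other abundant channels follow, *Kcnj8*, *Kcnk12* and *Kcne3* being given above. *Kcnk1* had a log2 fold change of -0.26 ± 0.60, *Kcnn4* of 0.12 ± 0.29, *Kcnk5* of 0.22 ± 0.30 and *Kcne4* of -0.35 ± 0.29 (edgeR, n = 4 per group). Among channels of adult segments, *Kcnj16* was at 0.30 ± 0.56, *Kcnj1* at -0.54 ± 0.89, *Kcnj10* at 1.21 ± 0.82 and *Kcnj15* at 0.01 ± 0.59. For *Kcnj1* and *Kcnj10* the error was near a 2-fold change, so a change of that size was not detectable at this spread. In simulated data with the spread of these cultures, edgeR found 11% of genes given a 2-fold change and 73.5% of those given a 4-fold one. The changed genes were drawn from all genes tested, with a median of 17.6 CPM against 1.29 for the members. These shares therefore do not measure recovery of the channels, whose standard errors were larger (median 0.55 against 0.24).

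By class, the 24 voltage-gated pores tested had a median log2 fold change of 0.48, with 19 above 0. The 11 inward rectifiers had a median of -0.13 with 5 above 0, the 14 auxiliary subunits 0.04 with 7, the 9 tandem pore-domain channels 0.22 with 5, and the 8 calcium- or sodium-activated pores 0.19 with 5. Over all 66 members the median was 0.25 and 41 lay above 0 (62.1%), against a median of 0.03 and 52.5% over all genes tested. By culture, the median log2 deviation of the members was -0.21 to 0.21 in the controls. After GDNF it was -0.05 to 0.24, so the groups overlapped. With library size alone as scaling, the medians were 0.45 for the members and 0.25 for all genes.

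**Figure D5:**
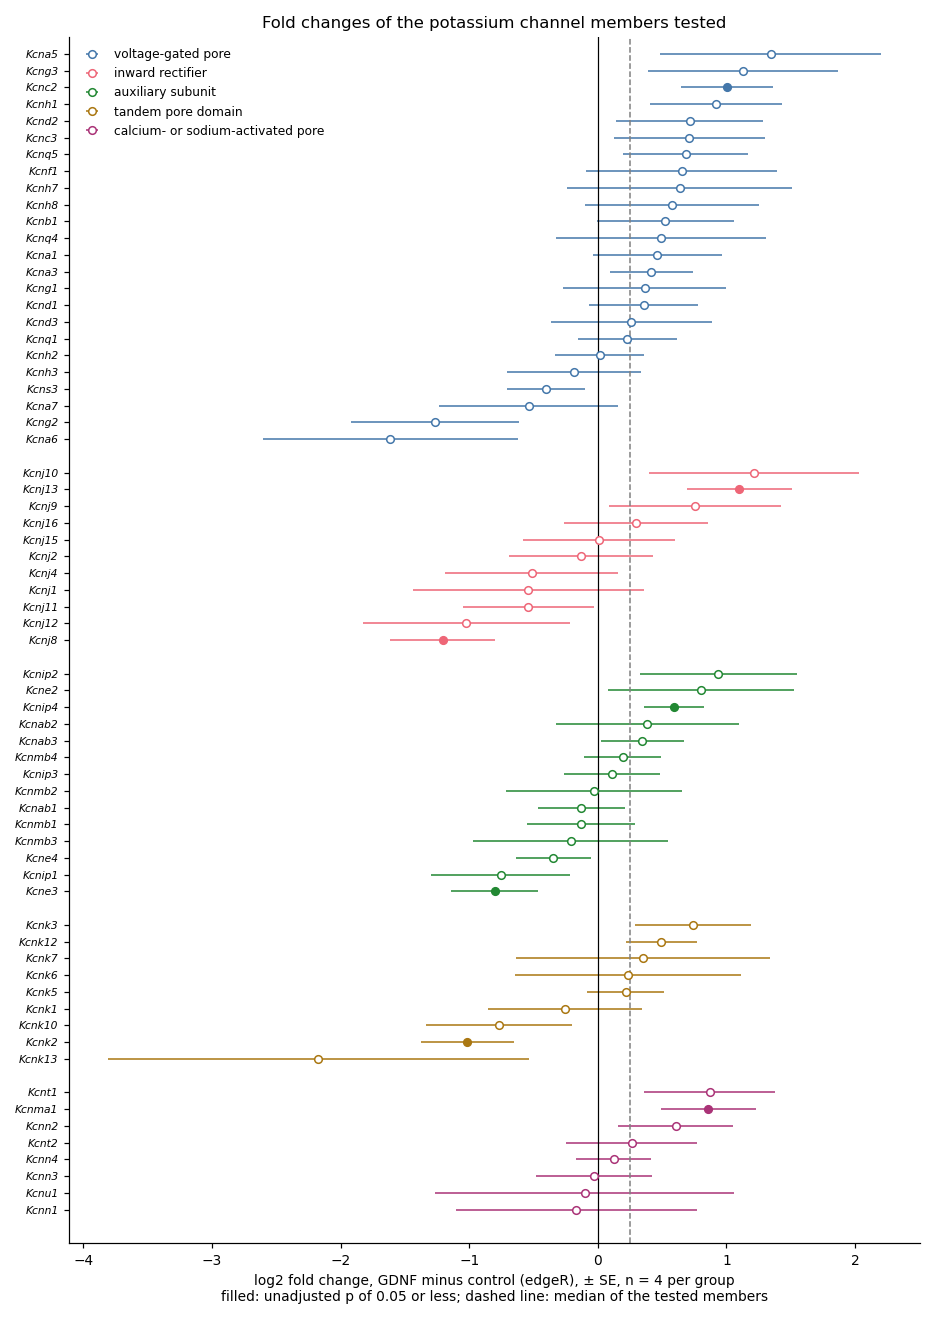
Log2 fold change of GDNF minus control with its standard error (horizontal axis, n = 4 per group) for the 66 potassium channel genes tested, grouped by class. Filled points passed an unadjusted p of 0.05, and the dashed line marks the median of 0.25. None passed the adjusted p.

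Genes that work with potassium channels were read from a list of 37 partners, which held transporters, the sodium pump and regulatory kinases among others. Of these, 22 had a mean of at least 1 TPM, 33 were tested, none passed the adjusted p, 1 was higher at the unadjusted p and none was lower, against 9.25% and 12.9% of all genes, so the partners did not exceed the background. The median log2 fold change was 0.19. The one at the unadjusted threshold was *Wnk4*, a kinase that regulates sodium chloride cotransport and potassium secretion in the distal nephron. It was at 3.47, 6.19, 3.69 and 4.74 TPM in the controls and at 12.9, 10.4, 9.53 and 9.91 TPM after GDNF. The groups did not overlap in TPM, which carries no correction for composition, and the share of all genes apart on that scale was not counted. Its log2 fold change in CPM was 0.86 ± 0.21 (edgeR adjusted p = 0.167).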

How the data were processed

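RNA-Seq of 8 tubuloid cultures, 4 pulsed with GDNF and 4 controls by their labels, was analysed. Poly-A RNA was turned into libraries by the SMART-Seq v4 kit and sequenced as paired-end reads on lanes of 4 samples each, and the lane of each culture is not given in the sources used here. The authors mapped reads with STAR to mm10 and deposited counts per RefSeq transcript, without normalization. featureCounts and DESeq2 are also named in the submitters' processing notes, with versions and strand setting not given in the sources used here. The deposited FPKM values are counts scaled by the authors for transcript length and total, and served only to obtain lengths (whole numbers within 0.05 bases for 100% of transcripts). The deposited TPM values were scaled by the authors to the same sum over all transcripts in each culture. Reads shared by transcripts were counted under every one of them, so sums exceed reads, and TPM carries no correction for composition.

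The members and gene lists were chosen with earlier results of these data known. Counts were summed per symbol. Group differences were then fitted by edgeR (version 4.0.16, under R 4.3.3, with filterByExpr, TMM, glmQLFit, glmQLFTest, Benjamini-Hochberg over all genes tested, 0.05). Standard errors were log2 fold changes divided by the square root of the F statistic. TMM factors were 0.790 to 0.982 in control and 1.07 to 1.11 in GDNF cultures. Single genes were compared by two-sided exact permutation tests of log2 CPM (prior count 1). Groups share no culture numbers, so no pairing was used. Genes named are the members of segment and cell type channel lists, the 12 highest by mean TPM, the 10 smallest p, DESeq2 calls, partners at an unadjusted p of 0.05 and deciding markers. Other members named were chosen after their values were seen. Single values of some listed partner genes are not reported here. Alternatives were DESeq2 1.42.0, limma-voom (limma 3.58.1), other scalings and filters, one transcript per gene, kind of culture as a term, other thresholds and leaving out each culture. DESeq2 with each culture left out was chosen after seeing the data. The edgeR step was tested on simulated counts with 200 genes changed. Exon overlap was read from GENCODE M21 and coordinates from RefSeq, both on GRCm38. Figures used Python 3.11.15 and matplotlib 3.10.9.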

Additional observations from a re-analysis of the deposited data

Results flagged for a closer look

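Of 64 groups of 4 cultures examined for the named members in TPM, 6 held a culture far from the others by Dixon's criterion, which chance alone gives in about 5 of 100 groups. Control culture 14 was the one in 5 of them. *Kcne4* was at 16 TPM there against 8.25 to 9.13 TPM in the other controls, *Kcnmb2* at 4.52 against 0.802 to 1.35 TPM, and *Kcnj2*, an inward rectifier of muscle and endothelium, at 1.44 against 0.477 to 0.536 TPM. *Kcng2* was at 0.652 against 0.293 to 0.344 TPM and *Kcnj12* at 0.216 against 0.0224 to 0.0437 TPM in the same culture. This culture also had the lowest *Epcam* (66.0 TPM) and the highest *Dcn* (178.4 TPM) of the 8, and the part of these cell types in the levels was not tested. *Kcnk6*, a tandem pore-domain channel, was at 0.291 TPM in control culture 7 against 0.146 to 0.162 TPM in the other controls.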

How the results depend on the processing

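The number of members called was 0 under edgeR at adjusted p of 0.05 and 0.1, under limma-voom and with each culture left out, and was 1 by DESeq2 and 4 by DESeq2 at an adjusted p of 0.1 (*Kcnj8*, *Kcnk2*, *Kcnc2* and *Kcne3*). With each culture left out, DESeq2 called 0 to 3 members, and its adjusted p for *Kcnj8* was 0.00204 to 0.0896 in the 5 fits that gave one. The number higher at the unadjusted p was 0 to 6 with a culture left out, 0 without control culture 21 and 1 without GDNF culture 22. The number lower was 1 to 3, and 1 without control culture 14 or with library size alone as scaling. The median log2 fold change of the members was 0.14 to 0.27 with a culture left out and 0.45 with library size alone. Signs were followed across all alternatives only for the 10 members with the smallest p, and none of these reversed. For them, 167 alternative log2 fold changes kept their sign, and none of the 167 passed an adjusted p of 0.05. The DESeq2 value of *Kcnj8* kept its sign and passed it. The unadjusted threshold was less stable. Every member past it missed it with at least 1 culture left out, and *Kcnh1* and *Kcnk12* passed it in some such fits. Outside these 10 members a sign could change. The log2 fold change of *Kcnj1* was -0.54 in the main fit and 0.14 with kind of culture as a term. The exact p passed 0.05 on the TPM scale for *Kcnip4* and *Kcnma1* and was 0.0571 for *Kcng2*. Levels of 11 of 32 named members moved beyond 1 SD when TPM was summed over transcripts. No paired analysis was possible because the groups share no culture numbers. Low counts limit the comparison, since the median member tested had 1.29 CPM.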
